A study of Mus musculus with 10 samples.

Results

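The long noncoding RNA (lncRNA) genes Malat1, Neat1, Miat, Gas5, Snhg1 and Snhg12 were examined in the left ventricle (LV) of 4-week-old mice with and without pressure overload. They were named by symbol, with earlier results of these data known, and all 6 were found among the 55401 genes of the deposited tables, of which 13125 are lncRNA genes in the annotation. The pressure-overloaded mice had nAAC surgery, a constriction of the ascending aorta in newborns, and the control mice had sham surgery, with 5 mice and 1 library per mouse in each group. All 10 mice were labelled wild type (WT). The study describes its mice in general as being on a C57BL/6 background, with WT animals bred from AHR heterozygous parents and both sexes allotted to the operations at random. RNA was taken from whole LV tissue, so fewer cells of a type and less RNA per cell cannot be told apart. Levels are given as FPKM, fragments counted per kilobase of a transcript and scaled for library depth. It is per length and meant for comparing levels of different genes, but such comparisons depended in part on the measure used, as given below. A log2 fold change (FC) is the difference, nAAC minus sham, of the group means of log2(FPKM + 1), which understates the change of weakly expressed genes.

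The 6 RNAs belong to 2 classes. Malat1, Neat1 and Miat are long nuclear RNAs. Malat1 accumulates in nuclear speckles, where splicing factors are stored. Neat1 is the RNA around which paraspeckles are built, and its long isoform is the one needed for that scaffold while its short isoform shares the same start. Miat also forms nuclear foci and carries repeats that bind splicing factors. Gas5, Snhg1 and Snhg12 are snoRNA host genes, whose introns hold small nucleolar RNAs. Those of the box C/D kind guide methylation of ribosomal RNA and those of the H/ACA kind guide its pseudouridylation, and Snhg12 hosts mostly the latter. Their spliced exons are exported, engage ribosomes and are removed by nonsense-mediated decay (NMD), and their starts carry the pyrimidine tract of TOP mRNAs, the class that encodes ribosomal proteins and translation factors. Gas5 is also known for binding the glucocorticoid receptor.

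The genes occupy 5 places in the genome (GRCm38 coordinates as the tables give them, with annotation from GENCODE M21). Malat1 (ENSMUSG00000092341, chr19:5795690-5802672, minus strand) and Neat1 (ENSMUSG00000092274, chr19:5824708-5845478, minus strand) are neighbours, and their 5′ starts lie 42806 bases apart. Malat1 has 4 annotated transcripts, the longest of 6983 bases, and Neat1 has 4, from 711 to 20771 bases. Snhg1 (ENSMUSG00000108414, chr19:8723475-8726443, plus strand) lies on the same chromosome and has 18 transcripts of up to 2728 bases. Miat (ENSMUSG00000097767, chr5:112213228-112229395, minus strand) has 6 transcripts of up to 9163 bases. Gas5 (ENSMUSG00000053332, chr1:161034422-161038539, plus strand) has 25 transcripts of up to 2556 bases. Snhg12 (ENSMUSG00000086290, chr4:132308623-132311024, plus strand) has 10 transcripts of up to 1538 bases.

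The starts of the host genes are shown because the pyrimidine tract is the sequence feature that places them in the TOP class. Each line gives 60 bases of the RefSeq genome (GRCm38.p6, plus strand) around a RefSeq start, with 30 bases before it, and the capitals mark the longest unbroken run of C and T with at least 1 base within 10 bases of the start.
Gas5, chr1:161035136-161035195: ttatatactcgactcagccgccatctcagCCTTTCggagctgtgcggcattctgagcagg
Snhg1, chr19:8723457-8723516: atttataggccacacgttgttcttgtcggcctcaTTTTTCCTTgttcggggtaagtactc
Snhg12, chr4:132308648-132308707: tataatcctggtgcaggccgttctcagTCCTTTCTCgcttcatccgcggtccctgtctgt
The run was 6 bases long in Gas5 and 9 in both Snhg1 and Snhg12. Among the 32851 RefSeq mouse promoters examined on the gene strand in the same way, 29.97% held a run of at least 6 bases and 9.75% of at least 9. A further RefSeq start of Gas5, at position 161034601, had a run of 3 bases. These matches describe the letters and are not evidence of where transcription began in these mice.

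The libraries bore out the operation. The load-responsive genes Nppa, Nppb, Acta1 and Myh7 had log2 FCs of 6.07, 5.12, 6.52 and 2.75, and their groups did not overlap. Estimated depth was 4.86 to 6.82 gigabases in the nAAC libraries and 5.06 to 5.24 in the sham libraries. The defining markers of cardiomyocytes, fibroblasts, endothelial cells, leukocytes, mural cells and erythroid cells were above 0 in every library, and of the 4 atrial markers 1 was at 0 in at least 1 library. All 11867 genes with a mean of at least 1 FPKM were tested, and their median log2 FC was 0.22, so a value near that figure is the common shift of these tables. Sham replicate 4 stood apart from the other sham libraries by transcript length. It read higher for short transcripts, by a median of 0.64 on the log2 scale for the 1202 tested genes of up to 1000 bases, and lower for long ones, by a median of -0.55 for the 569 genes of 8001 to 16000 bases.

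Of the 6 RNAs, 5 passed the filter on low values and Miat did not. Neat1 was the 1 RNA called higher in nAAC at an adjusted p below 0.05, no RNA was called lower (0 at an unadjusted p below 0.05 by limma, against 2 higher, Neat1 and Malat1), and none met the DEG rule, which also asks for an absolute log2 FC above 1. Over all genes tested, 27.1% were called higher, 4.6% lower, 5.01% were DEGs higher in nAAC and 0.893% were DEGs lower, so 1 called RNA among the 5 tested was not far from the background. Over the 352 lncRNA genes tested the shares were 19% higher and 15.1% lower, and their median log2 FC was 0.08.

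**Figure D1:**
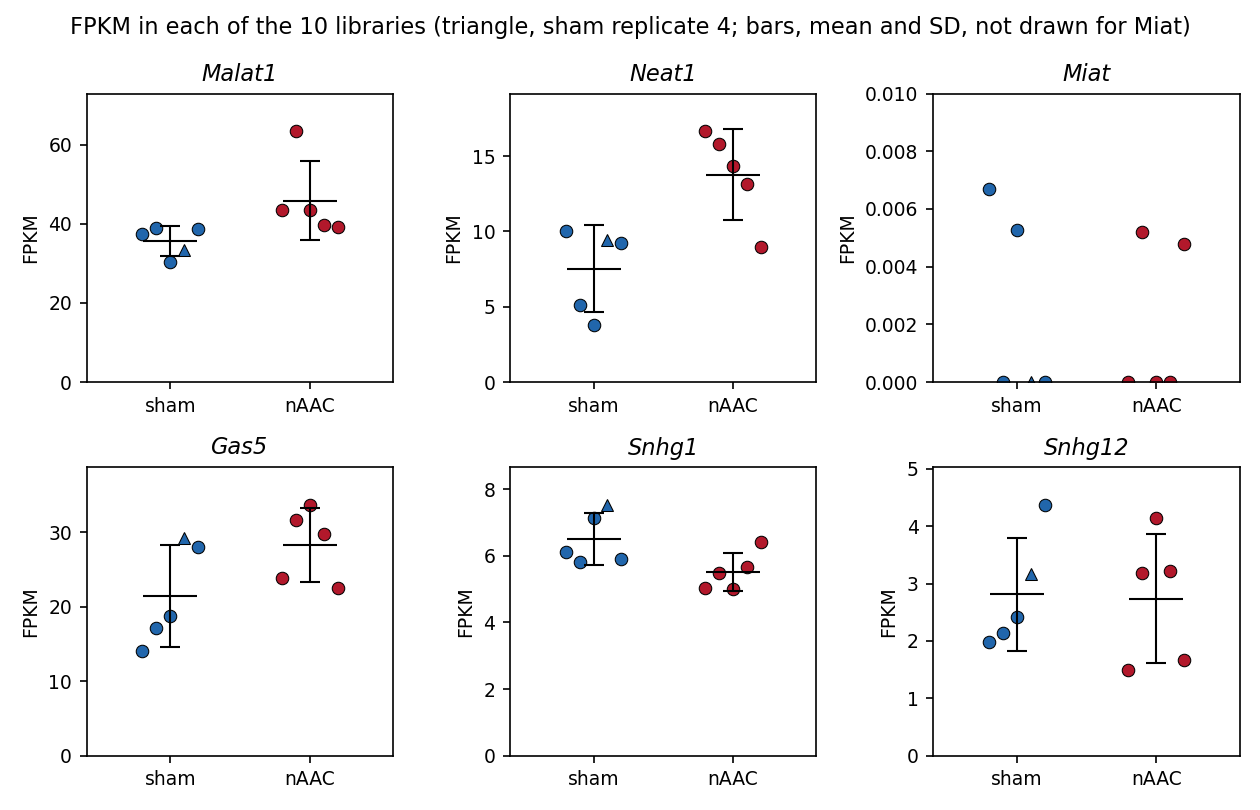
FPKM of each RNA (vertical axes, from 0, each with its own scale) in the 5 sham libraries (blue) and the 5 nAAC libraries (red). Bars are means and SD and are not drawn for Miat. Malat1 is the only panel in which every nAAC library lies above every sham library, and the Neat1 panel has 1 nAAC library at 8.94 FPKM within the sham range.

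Neat1 was called higher in nAAC LV with FPKM as deposited. Replicates 1 to 5 of nAAC stood at 16.7, 15.8, 14.3, 13.1 and 8.94 FPKM. Sham replicates 1 to 5 stood at 10.05, 5.14, 3.78, 9.44 and 9.27 FPKM. Replicates 1 to 4 of nAAC lay above every sham library, and nAAC replicate 5 lay within the sham range. The means were 13.8 ± 3.02 FPKM in nAAC and 7.54 ± 2.86 in sham (SD, n = 5 each), a ratio of 1.83. The log2 FC was 0.84 (SE 0.24), with an adjusted p of 0.0181 by limma and p = 0.0317 in a two-sided exact permutation test. The sham libraries fell into a pair near 4 to 5 FPKM (replicates 2 and 3) and 3 libraries above 9. Leaving out each library in turn gave log2 FCs of 0.65 to 0.98, and Neat1 was called in each case. The call was lost under median-ratio scaling, which brings the median of all genes to 0 (log2 FC 0.59, adjusted p = 0.0848) and calls 13.2% of all genes higher, and after removal of the length and GC trend of each library (log2 FC 0.54, adjusted p = 0.244), which calls 15.3% higher and 14.6% lower.

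Malat1 was the most abundant of the 6 RNAs in every library. Its levels were 43.4, 63.4, 43.5, 39.7 and 39.3 FPKM in nAAC replicates 1 to 5. In sham replicates 1 to 5 they were 37.3, 38.9, 30.3, 33.3 and 38.6 FPKM. The groups did not overlap, but the lowest nAAC library exceeded the highest sham library only narrowly, and nAAC replicate 2 stood alone above the rest. The means were 45.85 ± 9.996 and 35.7 ± 3.75 FPKM, a ratio of 1.28. The log2 FC was 0.34 (SE 0.15), which missed the threshold in limma (adjusted p = 0.0975), whereas the two-sided exact permutation test gave p = 0.0079, the smallest that 5 against 5 libraries can give. Groups without overlap were common, with nAAC higher in 18.9% and lower in 3.46% of all genes tested, and higher in 12.8% of the lncRNA genes tested. Without nAAC replicate 2 the log2 FC was 0.22 (adjusted p = 0.225), and under median-ratio scaling it was 0.06.

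Gas5, the most abundant of the host genes, varied within both groups. Its nAAC levels were 23.8, 31.7, 33.7, 29.7 and 22.5 FPKM in replicates 1 to 5. Its sham levels were 14.1, 17.1, 18.8, 29.3 and 28.0 FPKM in the same order. Sham replicates 4 and 5 lay inside the nAAC range, and sham replicates 1 to 3 lay below every nAAC library. The means were 28.3 ± 4.90 and 21.4 ± 6.81 FPKM, a ratio of 1.32, with a log2 FC of 0.42 (SE 0.20, adjusted p = 0.125, two-sided exact permutation p = 0.103). Sham replicate 5 was nearly as high as sham replicate 4, and the call changed when sham replicate 4 was left out. Without it the sham mean was 19.5 ± 6.01 FPKM (n = 4), the log2 FC was 0.54 and Gas5 was called (adjusted p = 0.0373), in a fit that called 33.1% of all genes higher and 5.23% lower. With all libraries kept, Gas5 was also called in TPM (log2 FC 0.59, limma adjusted p = 0.0385) and with array weights. Those fits called many genes. Of 11867 genes, TPM called 4973 higher and 344 lower, and array weights called 5695 higher and 756 lower. Under median-ratio scaling the log2 FC was 0.15.

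Snhg1 had the lower mean in nAAC. Its levels were 5.04, 5.48, 4.99, 5.66 and 6.41 FPKM in nAAC replicates 1 to 5. They were 6.10, 5.83, 7.13, 7.53 and 5.89 FPKM in sham replicates 1 to 5. Replicates 1 to 4 of nAAC lay below every sham library and nAAC replicate 5 lay among them. The means were 5.52 ± 0.576 and 6.50 ± 0.783 FPKM, the log2 FC was -0.20 (SE 0.11), and neither limma (adjusted p = 0.177) nor the two-sided exact permutation test (p = 0.0635) passed the threshold. Its place among all genes was low, since the median gene stood at 0.22, and it ranked 10563 of 11867 by log2 FC. With that common shift taken out by median-ratio scaling, Snhg1 was called lower (log2 FC -0.44, adjusted p = 0.0107), beside 12.1% of all genes.

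Snhg12 did not separate the groups. Its nAAC levels were 1.49, 3.19, 4.14, 3.22 and 1.66 FPKM, and its sham levels were 1.99, 2.14, 2.41, 3.16 and 4.38 FPKM. Both groups covered nearly the same range, with the lowest values in nAAC replicates 1 and 5. The means were 2.74 ± 1.13 and 2.81 ± 0.984 FPKM, and the log2 FC was -0.05 (SE 0.22, adjusted p = 0.880, two-sided exact permutation p = 0.865). The sign changed between settings, with log2 FCs of -0.25 to 0.08, so no direction is given.

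Miat was hardly detected. In nAAC it was listed at 0 in replicates 1, 3 and 4 and at 0.0052 and 0.0048 FPKM in replicates 2 and 5. In sham it was listed at 0 in replicates 2, 4 and 5 and at 0.0067 and 0.0053 FPKM in replicates 1 and 3. Its mean coverage per base was at most 0.0335 reads, against 159.0 to 328.6 for Malat1, 19.3 to 70.1 for Neat1, 13.7 to 29.1 for Gas5, 7.45 to 10.9 for Snhg1 and 3.49 to 8.49 for Snhg12. It ranked 5514 of the 13125 lncRNA genes by mean FPKM, so it cannot be counted among the abundant RNAs of these libraries, and a difference between groups was not detectable at this depth.

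Levels therefore ran in the order Malat1, Gas5, Neat1, Snhg1, Snhg12 and Miat. Among lncRNA genes the first 5 ranked 6, 18, 36, 68 and 146 by mean FPKM over the 10 libraries. Among all genes, Malat1 ranked between 729 and 1341 in single libraries, Gas5 between 1304 and 2462, and Neat1 between 2446 and 6773. Snhg1 ranked between 4364 and 6819 and Snhg12 between 7013 and 10893. In nAAC the FPKM ranges of neighbours in this order did not overlap. In sham the ranges of Neat1 (3.78 to 10.05 FPKM) and Snhg1 (5.83 to 7.53) overlapped, and those of the other neighbours did not. On the log2 scale Malat1 exceeded Neat1 by 1.33 to 2.02 in nAAC and by 1.71 to 2.71 in sham.

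The place of Gas5 in that order depended on the column used. The tables also hold the mean coverage of each gene, which was put on the FPKM scale with 1 factor per library, the commonest quotient of both columns in that library. For Malat1 the FPKM equalled this scaled coverage in every library. For Gas5 the FPKM was 5.21 to 6.41 times the scaled coverage, for Snhg1 2.83 to 3.92 times and for Snhg12 2.02 to 2.78 times. The gap was largest in the host genes, which have the most annotated transcripts. Malat1 and Neat1 have 4 annotated transcripts each, and the ratio of Neat1 reached 1.70. The cause of the gap was not tested. In scaled coverage Gas5 (4.798 ± 0.736 in nAAC and 3.76 ± 0.943 in sham) lay below Neat1 (9.75 ± 1.94 and 5.88 ± 2.01). For Neat1 the ratio was 1.27 to 1.62 in nAAC and 1.03 to 1.70 in sham.

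The difference between groups also depended on the column for Snhg1. Its ratio of FPKM to scaled coverage was 2.83 to 3.63 in nAAC and 3.52 to 3.92 in sham. Its scaled coverage was 1.67 ± 0.199 in nAAC and 1.71 ± 0.270 in sham, with a log2 FC of -0.02, so the lower FPKM in nAAC was not seen in coverage. Neat1 was called in coverage as well (log2 FC 0.67, adjusted p = 0.0277), in a fit that called 27.5% of all genes higher and 4.69% lower. The log2 FC of Malat1 was 0.34 in both columns. That of Gas5 was 0.30 in coverage, and that of Snhg12 was 0.01.

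The deviation of sham replicate 4 by length did not carry over evenly to these RNAs. The deviation of a gene is its log2 value in sham replicate 4 minus the mean of the other 4 sham libraries. Neat1, the longest, deviated by 0.46, whereas the trend over all tested genes at its length and GC content was -0.88. Gas5 deviated by 0.61 against a trend of 0.09, and Malat1 by -0.12 against -0.42. Snhg1 deviated by 0.24 against a trend of 0.06, and Snhg12 by 0.20 against 0.35. The trend at Neat1 rests on few genes, since 22 tested genes had a transcript over 16000 bases, and it takes the length of the longest isoform. With the median length of the annotated transcripts in the trend, the log2 FC of Neat1 was 0.65 (adjusted p = 0.0744). Without sham replicate 4 it was 0.93 (adjusted p = 0.0121).

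**Figure D2:**
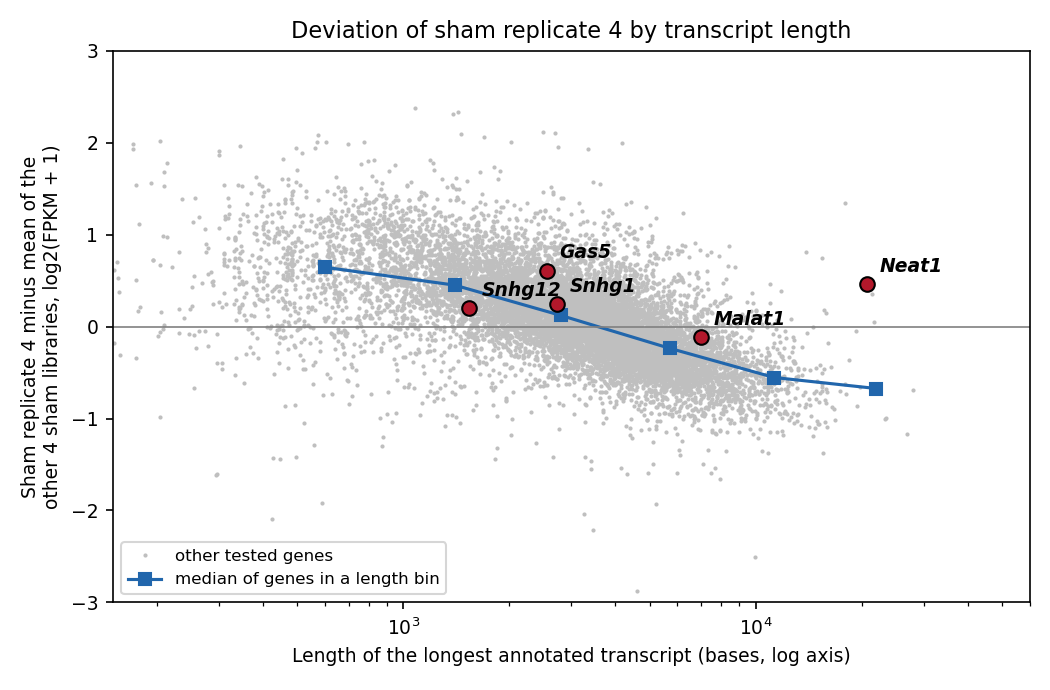
Difference of sham replicate 4 from the mean of the other 4 sham libraries on the log2(FPKM + 1) scale (vertical axis) against the length of the longest annotated transcript in bases (horizontal log axis). Grey dots are tested genes, of which a few lie outside the axes, blue squares are medians of length bins drawn near the middle of each bin, and red points are the RNAs. Malat1 and Neat1 lie above the falling trend, Neat1 at 0.46 where the bin median is -0.67.

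Sex-linked transcripts moved with the groups. Xist, the RNA that coats the inactive X chromosome, was above 1 FPKM in 4 of 5 nAAC libraries and in 2 of 5 sham libraries, replicates 4 and 5, and the Y-linked Ddx3y was above 0 in the other 4 libraries. Among the libraries with Xist, Gas5 ranged from 22.5 to 33.7 FPKM in nAAC and from 28.0 to 29.3 in sham, a log2 difference of means of -0.08. In the libraries without Xist it was 31.7 FPKM in 1 nAAC library and 14.1 to 18.8 in 3 sham libraries. Neat1 ranged from 8.94 to 16.7 FPKM against 9.27 to 9.44 with Xist, a log2 difference of means of 0.43. It stood at 15.8 against 3.78 to 10.05 without. Malat1 was 39.3 to 43.5 FPKM against 33.3 to 38.6 with Xist and 63.4 against 30.3 to 38.9 without. With the Xist level as a covariate the log2 FC was 0.74 for Neat1, which was then not called (adjusted p = 0.113), and 0.26 for Gas5. No test was run among libraries without Xist, since 1 nAAC library was of that kind. The part of sex in these levels was not tested further.

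Library composition moved with Gas5 too. Genes of the mitochondrial genome held 46.5% to 49.8% of the TPM in sham replicates 1 to 3, the libraries with the lowest Gas5, and 33.7% and 38.3% in sham replicates 4 and 5, close to the 32.8% to 39.9% of the nAAC libraries. After rescaling without mitochondrial genes the log2 FC of Gas5 was 0.41 and that of Neat1 0.83, nearly as before. That rescaling left the median of all genes at 0.21. Under median-ratio scaling, which brought that median to about 0, Gas5 had 0.15 and Neat1 0.59. The part of library composition in these levels was not tested. Of the 6 fibroblast markers 4 were called higher in nAAC, against 27.1% of all genes tested, and the other 2 had log2 FCs of 0.26 and 0.29. The count was 2 without any 1 of nAAC replicates 1, 4 and 5 or sham replicates 1, 3 and 5, and 2 under median-ratio scaling. Fibroblast markers summed to 418 to 683 FPKM in nAAC against 365 to 384 in sham. Mural markers were called higher for 3 of 4 genes and summed to 232 to 345 FPKM against 153 to 258. Leukocyte markers were called for 1 of 5, or 2 without any 1 of nAAC replicates 2 and 3 or sham replicate 5 (44.5 to 84.9 FPKM against 20.7 to 48.1). Of the 9 cardiomyocyte markers 1 was called higher and 2 lower (15224 to 23783 FPKM against 17402 to 31480). Of the 5 endothelial markers 1 was called higher, and 0 under median-ratio scaling (133 to 244 FPKM against 125 to 199). Of the 4 atrial markers 0 were called higher and 1 lower (3.76 to 234 FPKM against 12.8 to 53.6). The part of these cell types in the levels of Neat1, Malat1 and Gas5 was not tested.

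**Figure D3:**
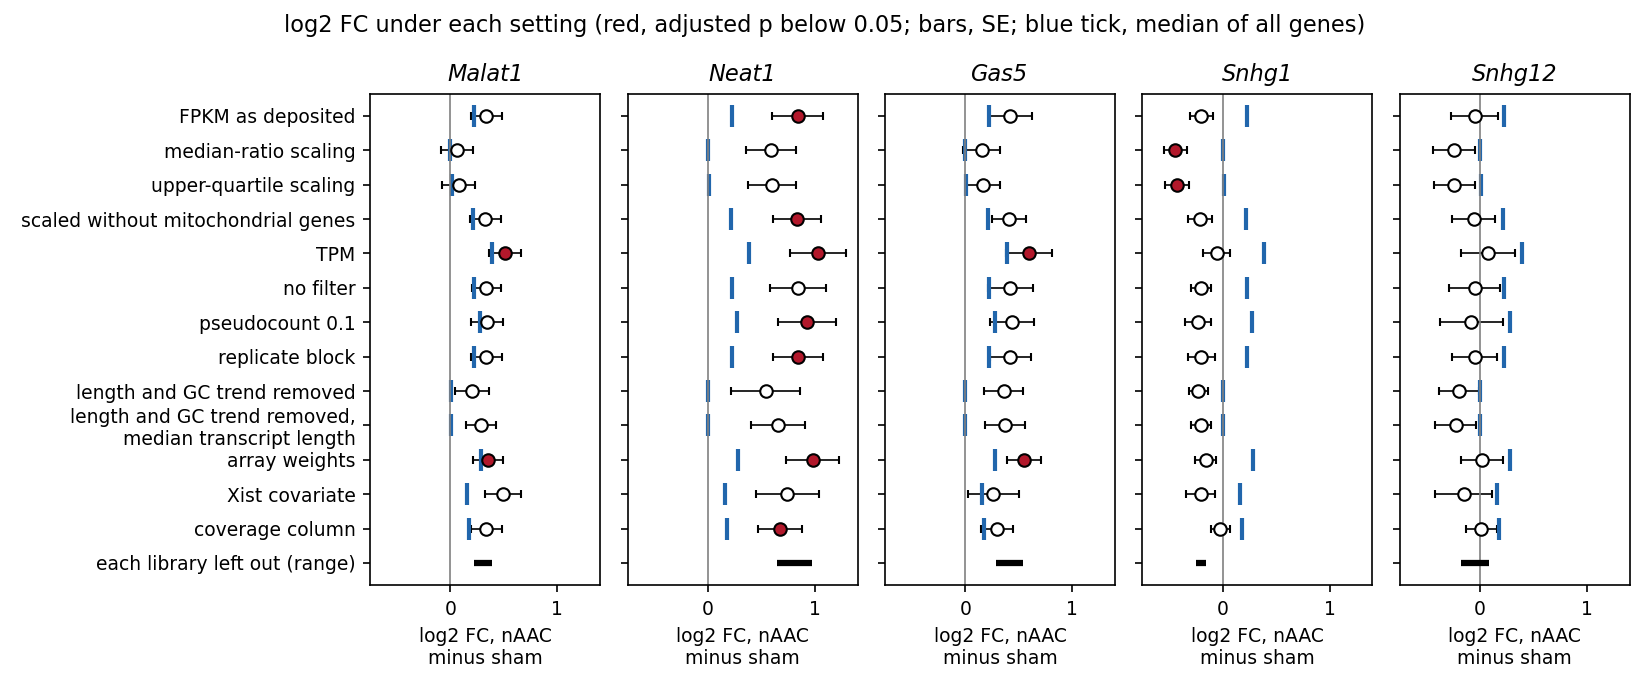
log2 FC of the 5 tested RNAs (horizontal axes) under each setting (rows). Bars are SE, red points have an adjusted p below 0.05, blue ticks give the median of all genes tested under that setting, and the bottom bar is the range when each library is left out. Neat1 lies to the right of the blue tick in every row, Snhg1 to the left of it in every row, and Malat1 and Gas5 lie near it in most rows.

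The genes around the RNAs were then examined, since a change shared with neighbours would not be particular to the RNA. Apart from the RNAs themselves, 17 tested genes started within 50 kb of one of them, of which 2 were called higher and 1 lower. Over all genes tested 27.1% were called higher and 4.6% lower, so these counts are not read as a result about the loci. The largest difference among the 17 genes was that of Slc3a2, which encodes the heavy chain that carries amino acid transporters to the cell surface. Its start lies 106 bases from that of Snhg1 on the opposite strand. Slc3a2 stood at 14.9 to 19.1 FPKM in nAAC and at 6.56 to 15.1 in sham, with sham replicates 4 and 5 highest among the sham libraries. Its means were 17.0 ± 1.91 and 10.2 ± 3.78 FPKM, with a log2 FC of 0.75 (SE 0.20, adjusted p = 0.0121). Slc3a2 was called in all 10 fits that left out a library and under 11 of the 12 other settings, among them median-ratio scaling (0.49, adjusted p = 0.046).

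On the log2(FPKM + 1) scale Slc3a2 exceeded Snhg1 by 1.11 to 1.68 in nAAC and by 0.07 to 1.05 in sham. In scaled coverage, where Snhg1 itself hardly differed, the same difference was 0.32 to 0.69 in nAAC and -0.34 to 0.28 in sham. The groups did not overlap in either column, but only narrowly. Among single genes, 18.9% of those tested had every nAAC library above every sham library. The share among gene pairs was not counted, so the separation is not read as particular to this pair. The other tested neighbours of Snhg1, namely Wdr74, Stx5a, Nxf1, Tmem223 and Tmem179b, were not called, with log2 FCs of -0.05 to 0.45. Near Neat1, Frmd8 was called higher (3.31 ± 0.707 against 2.17 ± 0.365 FPKM, log2 FC 0.44, adjusted p = 0.0227), but in 6 of the 10 fits that left out a library and under 6 of the 12 other settings. Slc25a45 was not called (0.36, adjusted p = 0.0956). The RNAs Malat1 and Neat1 and these 2 genes of the region had log2 FCs of 0.34 to 0.84, beside a median of 0.22 for all genes. Of them Malat1 and Slc25a45 were not called, and a shared change of the region was not tested.

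Around the other RNAs little passed the test. Near Miat, the crystallin gene Cryba4 was called lower (1.404 ± 0.516 against 2.84 ± 1.402 FPKM, log2 FC -0.64, adjusted p = 0.042), with 5.13 FPKM in sham replicate 4 as its highest value, and it was called in 3 of the 10 fits that left out a library. Tpst2, the other tested gene near Miat, was not called (0.36). Near Snhg12, Trnau1ap, Taf12, Rcc1, Gmeb1 and the host gene Snhg3 were not called, with log2 FCs of 0.11 to 0.33. The 23 snoRNA rows inside the host genes, 10 in Gas5, 8 in Snhg1 and 5 in Snhg12, never exceeded 0.269 FPKM, so these libraries hold next to no signal for the snoRNAs themselves. Zbtb37 overlaps Gas5 on the opposite strand and reached 1.07 FPKM. The library kit is not stated to mark strand, so reads of the overlap cannot be split between them.

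**Figure D4:**
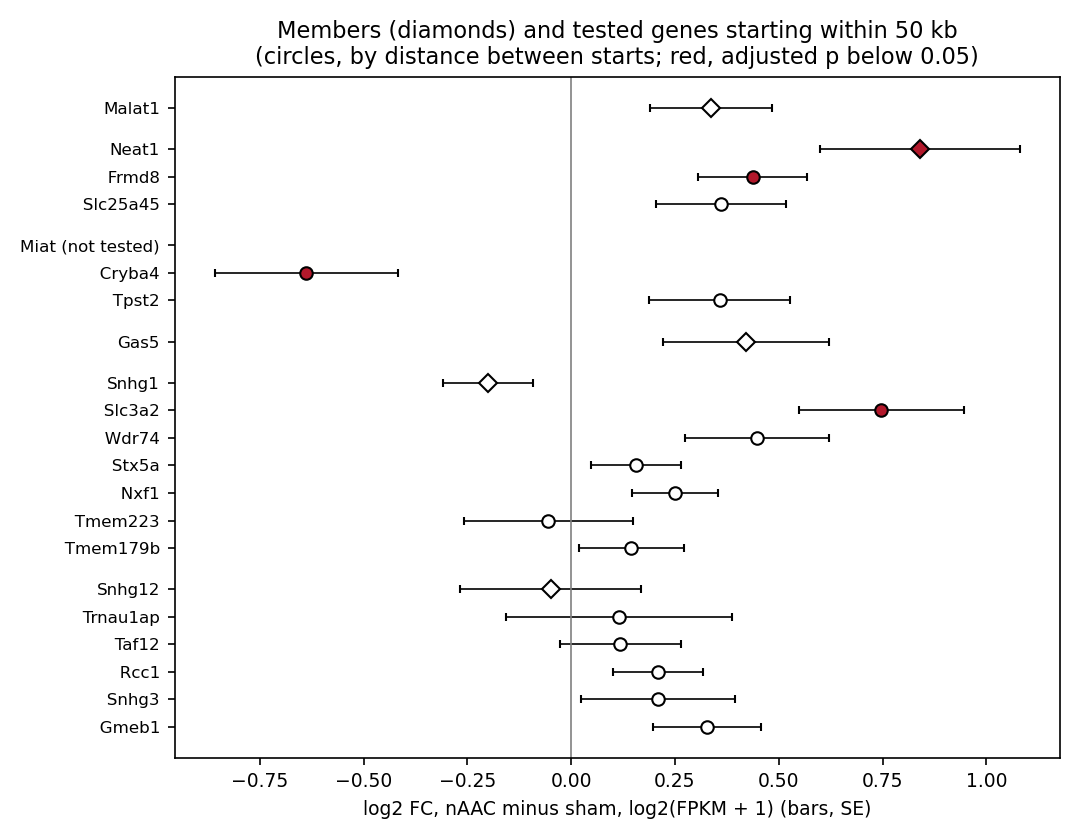
log2 FC (horizontal axis, bars SE) of the RNAs (diamonds) and, for Neat1, Miat, Snhg1 and Snhg12, of the tested genes that start within 50 kb of them (circles), grouped by RNA and ordered by distance between starts. Red marks an adjusted p below 0.05. Slc3a2, at 0.75, lies to the right of 0, and Snhg1, at -0.20 and not called, lies to the left.

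Lists of related genes were read against the same background, a median log2 FC of 0.22 with 27.1% called higher and 4.6% lower. Of 10 tested Snhg host genes other than the 3 described, 2 were called higher and 1 lower, with a median log2 FC of 0.21. Snhg18 rose from 3.19 ± 0.434 to 7.18 ± 0.811 FPKM (log2 FC 0.97, SE 0.11, adjusted p = 3.59e-05), and Snhg5 rose by 0.42. Snhg14, the long transcript of the imprinted Prader-Willi region that hosts brain snoRNAs, fell from 3.31 ± 1.46 to 1.20 ± 0.433 FPKM (log2 FC -0.93, adjusted p = 0.00541). The call of Snhg18 was made under all 12 other settings, that of Snhg14 under 11 and that of Snhg5 under 5 of them. With the Xist level as a covariate, 0 genes of this list were called lower. The higher calls of this list fell to 1 without any 1 of nAAC replicates 3 and 4 or sham replicates 1 and 3.

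Box C/D snoRNP proteins, which package snoRNAs of the box C/D kind, had the highest median of the 9 lists, 0.39. By limma 3 of 10 were called higher, near the 27.1% of all genes, and none lower. At an unadjusted p below 0.05 in limma, 7 were higher and 0 lower. The share of all genes at the unadjusted threshold was not counted, so such counts are not read against a background in any list. Nop58, a core protein of the particle, rose by 0.44 and Ruvbl1, an ATPase that helps assemble it, by 0.54. Nop58 was called in all 10 fits that left out a library and Ruvbl1 in 5 of them. The count was 7 without sham replicate 4, 5 without sham replicate 5 and 0 under median-ratio scaling. Of 17 TOP mRNAs, 4 were called higher and none lower (1 lower at an unadjusted p below 0.05 in limma), with a median of 0.15. They included Eef1a1, the elongation factor that delivers transfer RNA (798.9 ± 80.3 against 476.2 ± 42.8 FPKM, log2 FC 0.74), and Eif3h at 0.59. The higher calls fell to 2 without any 1 of nAAC replicates 3, 4 and 5 or sham replicates 1 and 3, and 1 gene was called lower without sham replicate 1. Of 14 NMD factors, 4 were called higher and none lower (1 lower at an unadjusted p below 0.05), among them Upf3a (0.55) and Smg9 (0.54), and the list median was 0.21. Upf3a was called in 3 of the 10 fits that left out a library and Smg9 in all 10, and 1 NMD factor was called lower without nAAC replicate 2. After median-ratio scaling the NMD list had none called higher and 1 lower.

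Proteins of the nuclear bodies moved little. Of 16 paraspeckle proteins, 2 were called higher and none lower (1 lower at an unadjusted p below 0.05), with a median log2 FC of 0.16. They were Rbm14, which is needed to form paraspeckles (4.72 ± 0.586 against 3.02 ± 0.477 FPKM, 0.51), and Smarca4, an ATPase of chromatin remodelling complexes (0.48). Of 20 nuclear speckle and SR proteins, 2 were called higher, Srsf9 (0.60) and Srsf4 (0.45), and 1 lower, Clk1, the kinase that phosphorylates SR proteins (16.9 ± 2.33 against 25.4 ± 3.95 FPKM, -0.55), with a median of 0.18. Of the 12 other settings, Rbm14 was called under 9, Smarca4 and Srsf4 under 7 each, Srsf9 under 10 and Clk1 under 11. After removal of the length and GC trend, 0 paraspeckle proteins were called higher and 1 lower. Under median-ratio scaling, 0 speckle or SR proteins were called higher and 1 lower. Without sham replicate 4, 3 paraspeckle proteins were called higher and 1 lower, and 4 speckle or SR proteins were called higher and 1 lower. None of the 3 Miat-binding splicing factors was called by limma, nor passed an unadjusted p below 0.05, with a median of -0.00, and 1 was called higher without sham replicate 5 and 1 lower under median-ratio scaling.

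Of 11 glucocorticoid-responsive genes, 4 were called higher and 1 lower, with a median log2 FC of 0.23. The metallothionein gene Mt2 (105.4 ± 34.4 against 23.7 ± 8.46 FPKM, 2.12) and the cell cycle inhibitor Cdkn1a (20.2 ± 3.05 against 7.15 ± 2.45 FPKM, 1.41) rose, and the transcription factor gene Klf9 fell by 0.53. Klf9 was called in 8 of the 10 fits that left out a library, and the exceptions were those without nAAC replicate 2 or 3. All 3 genes respond to other signals as well. Of 24 other well known lncRNA genes in the tables, 12 passed the filter, 2 were called higher and 2 lower, and their median was 0.10. Meg3 (log2 FC 1.19) and Rian (0.92), neighbouring imprinted RNAs, rose. H19, the imprinted RNA next to Igf2, fell from 15.8 ± 5.62 to 2.42 ± 0.764 FPKM (-2.26), and Mhrt, transcribed antisense at the myosin heavy chain locus, had -2.10 with a sham mean of 68.9 ± 52.2 FPKM. Mhrt overlaps myosin transcription, so without strand its reads cannot be told apart from those of Myh7. Each of these 4 RNAs was called under all 12 other settings and in all 10 fits that left out a library, and with FPKM as deposited each had a larger absolute log2 FC than any of the 5 tested RNAs described above.

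**Figure D5:**
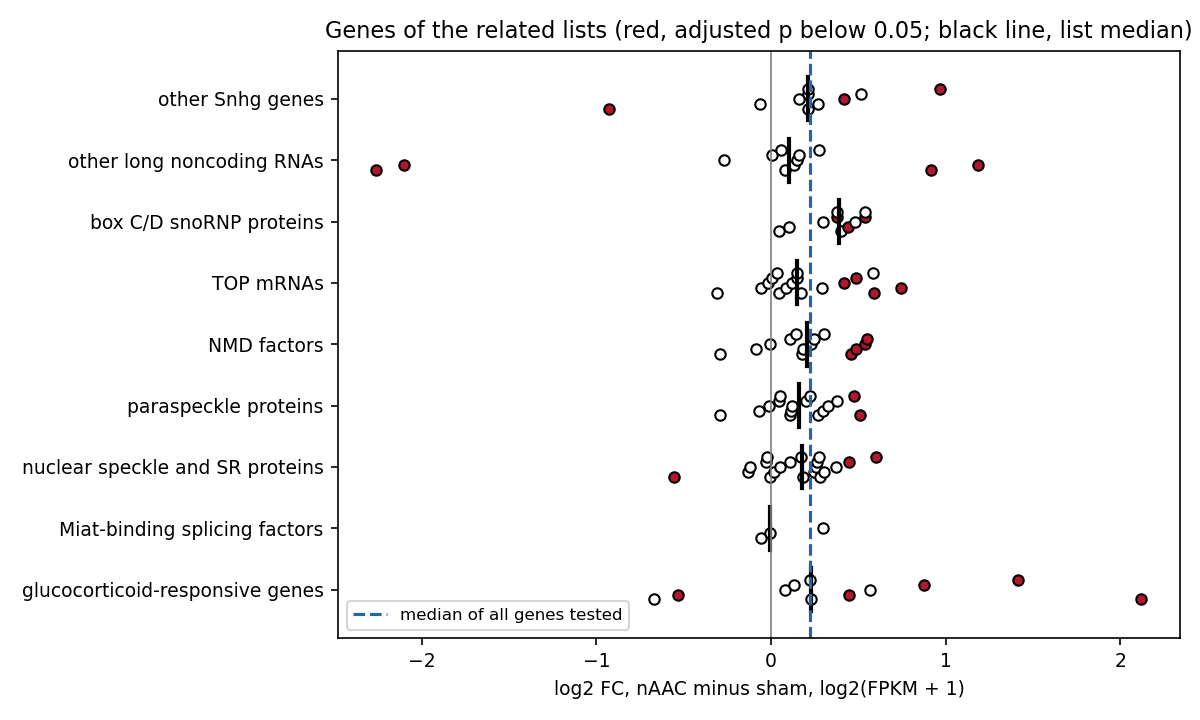
log2 FC (horizontal axis) of each tested gene in the 9 related lists (rows). Red points have an adjusted p below 0.05, black lines are list medians and the dashed line is the median of all genes tested at 0.22. Most points of the protein lists lie between -0.5 and 0.6, while the lncRNA list reaches -2.26.

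The RNAs were last compared by their pattern over the 10 libraries. Correlations are Pearson's r of log2 values and are given as a description, since all points share the operation and the composition of the library. Malat1 and Neat1 had r = 0.70, and 0.44 within groups. Gas5 and Snhg12 had r = 0.67, and 0.85 within groups, although Gas5 exceeded Snhg12 by 2.76 to 3.32 in nAAC and by 2.33 to 2.86 in sham. In FPKM, Snhg1 ran opposite to Malat1 and Neat1, with r = -0.68 and -0.66, and -0.46 and -0.38 within groups. These values hold for FPKM only. No r was taken in scaled coverage, where Snhg1 hardly differed between groups. The tested genes most like each RNA were Fam160a2, Plaa and Klhl18 for Malat1 (r = 0.89 each) and Fbxl12, Urgcp and Agtrap for Neat1 (0.95 each). They were Paf1, Mphosph6 and S100a13 for Gas5 (0.97, 0.97 and 0.96), Bambi-ps1, Tmem243 and Hddc2 for Snhg1 (0.93, 0.92 and 0.90), and Rps25, Pdcd2 and Rcsd1 for Snhg12 (0.90, 0.90 and 0.89). Without sham replicate 4 the r of these genes lay between 0.84 and 0.98. They were picked for the highest r over the same libraries, so high values follow from the choice and are not a check.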

How the data were processed

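Total RNA of LV tissue was extracted with Trizol, and libraries were made with the NEBNext Ultra RNA kit. The authors deposited 1 gene table per mouse. The deposited FPKM values are normalized by the authors for transcript length and library depth, the deposited TPM values are the same quantity summing to a constant per library, and the deposited coverage is the mean read depth per base. The submitters' processing notes name the build mm10. The aligner and quantifier are not given in the sources used here. Read counts were not recovered, so no count model was used. Of the genes shared with GENCODE M21, 99.35% had identical coordinates.

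Rows sharing a gene ID were summed. Genes with a mean of at least 1 FPKM were tested on log2(FPKM + 1) with limma 3.58.1 (R 4.3.3, empirical Bayes trend), without covariates, and the Benjamini-Hochberg adjustment covered all 11867 genes. Single RNAs were also tested by two-sided exact permutation tests. The fit was tested on simulated data. Depth was taken from the commonest FPKM-to-coverage quotient of a library, so its precision rests on the genes that share it. Named genes are the 6 RNAs, tested genes starting within 50 kb (2 of which are not reported here), up to 2 highest and 2 lowest called genes per list, the 3 most alike genes per RNA, and 4 load-responsive genes. The RNAs, lists, tests and settings were chosen with earlier results of these data known, and the coverage column and median transcript length were added after the data were seen. Figures were drawn with matplotlib 3.10.9. P values measure the spread between mice.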

Additional observations from a re-analysis of the deposited data

Results flagged for a closer look

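Within groups of 5 libraries, 118 groups of 59 genes were searched for 1 library far from the rest, by a gap to the nearest library above 0.71 of the group's range. Chance alone gives about 5.9 such groups, and 5 were found. Malat1 in nAAC replicate 2 stood at 63.4 FPKM, with the next library at 43.5, a gap of 0.788 of the range. Rbm14 in nAAC replicate 4 stood at 5.76 FPKM against 4.49 (0.942). Srsf4 in sham replicate 4 was low, at 6.94 against 8.60 FPKM (0.817). Mhrt was low in nAAC replicate 1, at 7.82 against 13.5 FPKM (0.753), and high in sham replicate 4, at 161.7 against 54.7 FPKM (0.779).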

How the results depend on the processing

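Under the 12 settings other than FPKM as deposited, Neat1 kept its direction, with log2 FCs of 0.54 to 1.03, and lost its call under median-ratio scaling (0.59), upper-quartile scaling (0.60), without a filter (0.84, adjusted p = 0.0633), removal of the length and GC trend (0.54, or 0.65 with median transcript length) and the Xist covariate (0.74). Malat1 gained a call in TPM (0.51) and with array weights (0.35, adjusted p = 0.0496), and Gas5 in TPM (0.59), with array weights (0.55) and without sham replicate 4. Snhg1 was called lower under median-ratio (-0.44) and upper-quartile (-0.43) scaling. The log2 FC of Snhg12 turned positive in TPM (0.0752), with array weights (0.0153) and in coverage (0.0124), and without nAAC replicate 1 (0.083), nAAC replicate 5 (0.0586) or sham replicate 5 (0.0829). The cause was not tested. Leaving out each library in turn gave 0.29 to 0.54 for Gas5, -0.18 to 0.08 for Snhg12 and 2899 to 4551 genes called, against 3757 with all libraries. Array weights, which weighted sham replicate 4 least, called 6451 genes and the Xist covariate 1986. The split of calls was 3211 higher and 546 lower as deposited, 1563 and 1431 under median-ratio scaling, 1620 and 1359 under upper-quartile scaling, and 1811 and 1730 after trend removal. In TPM the split was 4973 and 344, and with array weights 5695 and 756. TPM moved the median of all genes to 0.39, and both scalings and trend removal moved it to about 0.

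The labels number the mice of both groups 1 to 5, but nothing says that a number marks a shared litter or day, and same-numbered libraries deviated together with r between -0.32 and 0.19. With the replicate block 3426 genes were called and no RNA changed its call (Neat1 0.84, adjusted p = 0.0237). Of 528 refits of 24 called neighbours and list genes, 444 kept the call, 84 lost it and 0 changed sign.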
